A study of Mus musculus with 15 samples.

Results

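Some probes on an expression array carry no gene symbol: they were designed against predicted transcripts, sequence clusters or single cDNA records. The probes described here were the non-control probes of a mouse array whose name field repeated the record or probe identifier, or was empty, whose description did not mark them as long intergenic noncoding RNA, and whose spots were well above background on all 15 arrays of the series. They numbered 1699 of 9908 such unnamed probes and of 55681 non-control probes on the array. Another 4798 unnamed probes were well above background on 0 arrays. They were thus chosen by their measured signal over background, through the detection flags of the scanner software, and not by a difference between groups. Their brightness is a selected property, and the probes below are not all unnamed probes.

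The RNA came from livers of male CD1 mice, an outbred stock. Mice of the DEN and Gas1 groups had been given diethylnitrosamine (DEN), a liver carcinogen, in infancy, and Control mice saline. All mice then received plasmid every week by hydrodynamic gene delivery, a rapid tail vein injection of 50 µg of DNA in a large volume: empty plasmid in the Control and DEN groups, and a plasmid with HA-tagged Gas1, growth arrest specific 1, under the CAG promoter in the Gas1 group. The delivery reaches a part of the liver cells, mostly near vessels, so each value is a mixture of transfected and untransfected cells. The labels give an age of 10 weeks and the study's results text a much later age at death. The 15 arrays, 4 Control, 5 DEN and 6 Gas1, were taken as 13 mice, since an RNA code was shared by a pair of Control arrays and a pair of DEN arrays, which were averaged (3 Control, 4 DEN and 6 Gas1 mice). Whole tissue was measured, so fewer cells of a type and less RNA per cell cannot be told apart.

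Spots well above background numbered between 15707 and 29765 per array, with the lowest counts in Control mouse 2 (15707), Gas1 mouse 2 (18041) and Control mouse 1 (18354). All 8 hepatocyte markers and all 4 Kupffer cell markers were well above background on every array, and 0 of 4 cholangiocyte and 0 of 3 exocrine pancreas markers on the array were. The summed log2 level of the 3 erythroid markers, all well above background on every array, was 12.94 to 13.73 in Control, 13.99 to 14.38 in DEN and 13.22 to 15.18 in Gas1 mice. Its part in the differences below was not tested.

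Unnamed probes reach several kinds of transcript. A processed pseudogene is a copy of a messenger RNA that was written back into the genome, usually without introns, so a probe against it can also bind RNA of the parent gene and of its other copies. Endogenous retroviral elements are inherited remains of germline infections, present in many near-identical copies. Tandem repeats of short motifs occur in and between genes, and a probe made of such a repeat can bind any transcript that holds it. Parents that groups below are named after include Hmgb1, a chromatin protein that is also released by damaged cells, and Gapdh, a glycolytic enzyme. Others are Rps2 and Rpl7a, proteins of the small and the large ribosomal subunit. Probes of Rps2 and Rpl7a themselves are not described below.

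The sequences show these kinds. In the first set, capitals mark the stretch that aligned with another probe over at least 40 bases at 90% identity or more: the Gm2710 probe, not shown, for A_55_P2069787, and each other for the next pair. A_55_P2069787 lies at chr10:31294304-31294363 (mm9, minus strand), A_55_P2131481 at chr12:47579762-47579821 (minus strand), and the probe of Hmgb1 itself, A_55_P2025153, at chr5:149860420-149860479 (minus strand). They are shown as members of the Hmgb1-like group and the probe of the gene it resembles.
A_55_P2069787: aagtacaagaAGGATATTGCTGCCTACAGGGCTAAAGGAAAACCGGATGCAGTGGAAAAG
A_55_P2131481: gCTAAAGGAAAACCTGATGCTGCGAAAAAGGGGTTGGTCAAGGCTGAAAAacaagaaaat
A_55_P2025153: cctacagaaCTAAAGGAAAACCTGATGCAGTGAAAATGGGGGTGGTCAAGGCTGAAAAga

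Probes like Rps2, shown because they fell together, have capitals for an alignment of the same kind and lay at chr17:26680511-26680570 (A_55_P2030859, plus strand) and chr2:170779666-170779725 (A_55_P2184478, minus strand). A Gapdh-like probe lay at chr4:41116563-41116622 (A_55_P1968108, plus strand), with capitals for its alignment to another unnamed probe of the group.
A_55_P2030859: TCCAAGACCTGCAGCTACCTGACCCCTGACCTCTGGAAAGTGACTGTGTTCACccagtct
A_55_P2184478: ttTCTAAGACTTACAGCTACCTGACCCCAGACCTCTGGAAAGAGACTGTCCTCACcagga
A_55_P1968108: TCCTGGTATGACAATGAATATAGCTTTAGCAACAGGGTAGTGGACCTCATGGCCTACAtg

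A pair of probes at chr7:18244586-18244645 (A_55_P2114318) and chrX:29775213-29775272 (A_55_P2007495), both on the minus strand, had 95% identity over 60 bases with each other. Capitals mark the alignment with the probe of a predicted envelope glycoprotein-like gene, LOC100503637.
A_55_P2114318: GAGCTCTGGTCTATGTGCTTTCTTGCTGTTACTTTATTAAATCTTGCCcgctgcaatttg
A_55_P2007495: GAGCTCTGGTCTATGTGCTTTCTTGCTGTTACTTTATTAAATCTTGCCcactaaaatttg

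In the last probe, capitals mark the longest unbroken run of a tandem repeat. It is shown as a repeat probe that fell, and lay at chr1:74859627-74859686 (A_55_P1980214, minus strand).
A_55_P1980214: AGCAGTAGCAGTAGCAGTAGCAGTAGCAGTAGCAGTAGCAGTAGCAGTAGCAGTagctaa

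What the 1699 probes shared beyond the rule was examined first. Of them, 859 had only a probe name, 393 a NAP identifier, 323 an Ensembl transcript, 63 a TC consensus and 58 a GenBank record. NAP probes passed the detection rule most often, with 48.3% of the 814 unnamed ones, beside 12.5% of 2580 Ensembl and 15.2% of 5640 name-only probes. For 1311 probes the description was the word Unknown. Of the 87 with a RefSeq accession, 0 matched exactly 1 current RefSeq symbol. The median log2 level was 9.29, beside 8.44 for the 10427 probes with a symbol that were well above background on all arrays. The GC content had a median of 45%, beside 43.3% in that set. Probes of which at least 90% of the bases were purines, or at least 90% pyrimidines, numbered 35 (2.06%), beside 17 (0.163%) of the detected probes with a symbol and 55 (0.0988%) of all probes. The letters AATAAA, a polyadenylation signal, stood on the probe strand of 12.1% of the 1699, of 16.6% of the detected probes with a symbol and of 10.1% of all probes. On the other strand the shares were 3.12%, 4.25% and 3.74%. A match of letters is a description only.

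Likeness to other probes was counted for the 1699 only, so there is no share of other probes to set beside it. By the alignment rule above, on the same strand, 613 of the 1699 probes (36.1%) were like another probe of the array. A probe with a symbol was the partner for 419, and another of the 1699 for 393. Linked by such likeness, the probes formed 109 groups of 2 or more, 20 of them with 5 or more, and the largest held 40.

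The first comparison, DEN against Control, asks what differs in livers after the carcinogen. By limma, with p-values adjusted over all 55681 probes, 33 of the 1699 were higher in DEN (1.94%) and 26 lower (1.53%) at an adjusted p under 0.05. Over all probes, 0.594% were higher and 0.657% lower. Among the 13139 probes well above background on every array, the better match for the rule, 1.29% were higher and 1.87% lower. In both directions together, 3.47% of the unnamed probes were called beside 3.16% of the detected ones, so the share was close to the background. The difference of the shares was not tested. The 33 that rose did so by 0.27 to 2.85 on the log2 scale, with a median of 0.85. For the 26 that fell the range was -0.40 to -1.51 and the median -0.65. The median of all 1699 was 0.03, beside 0.00 over all probes, and 476 (28%) had an unadjusted p under 0.05, beside 27.1% of the detected and 17.7% of all probes. Mice of the groups compared did not overlap for 410 of the 1699, which included all 59 called, beside 2983 of the 13139 detected and 9393 of all 55681 probes.

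These calls were close to the threshold, with adjusted p between 0.00829 and 0.0496, and rested on few mice. The 59 calls became 4 without Control mouse 2, 4 without DEN mouse 3, 5 without Control mouse 1, 6 without DEN mouse 4, 20 without DEN mouse 2, 32 without Gas1 mouse 1 and 34 without Gas1 mouse 5. Without any of the other 6 mice they numbered between 46 and 79. The share over all probes was not counted in these fits. Scaling mattered as well. After median scaling calls split 370 higher to 0 lower, and the median difference of the detected probes moved from 0.00 to 0.72. Their median level was then 7.62 and 7.45 in Control mice 1 and 2 and 8.50 in Control mouse 3. In DEN and Gas1 mice it was 8.10 to 8.96. Calls split 4 to 8 after cyclic loess, 3 to 1 after scaling to the 75th percentile and 44 to 21 in the authors' own value table.

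The comparison of Gas1 with DEN asks whether the Gas1 plasmid changed levels in livers that had received the carcinogen. Among the 1699 probes, 1 was higher in Gas1 (0.0589%) and 1 lower (0.0589%) by limma. The background was 0.0126% higher and 0.0287% lower over all probes, and 0.0381% and 0.0761% over the detected ones. An unadjusted p under 0.05 was found for 253 probes (14.9%), beside 15.8% of the detected and 9% of all probes, and the median difference was -0.02. Against Control, the Gas1 livers had 2 probes higher (0.118%) and 4 lower (0.235%). Here the background was 0.0467% and 0.0754% over all probes and 0.137% and 0.266% over the detected ones. The unadjusted p was under 0.05 for 370 (21.8%), beside 22.1% of the detected and 11.4% of all probes. All 3 comparisons share groups and are not independent of each other. With mice left out in turn, the 2 calls of Gas1 against DEN were 0 without DEN mouse 2 or 3 or Gas1 mouse 2, 3, 5 or 6, 1 without Control mouse 2 or 3, DEN mouse 4 or Gas1 mouse 1, and 4 without DEN mouse 1. The 6 calls of Gas1 against Control were 0 without Control mouse 1, 2 without Control mouse 2 or Gas1 mouse 2 or 3, 3 without DEN mouse 4 or Gas1 mouse 1 or 4, 10 without DEN mouse 1 and 30 without Control mouse 3.

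**Figure D1:**
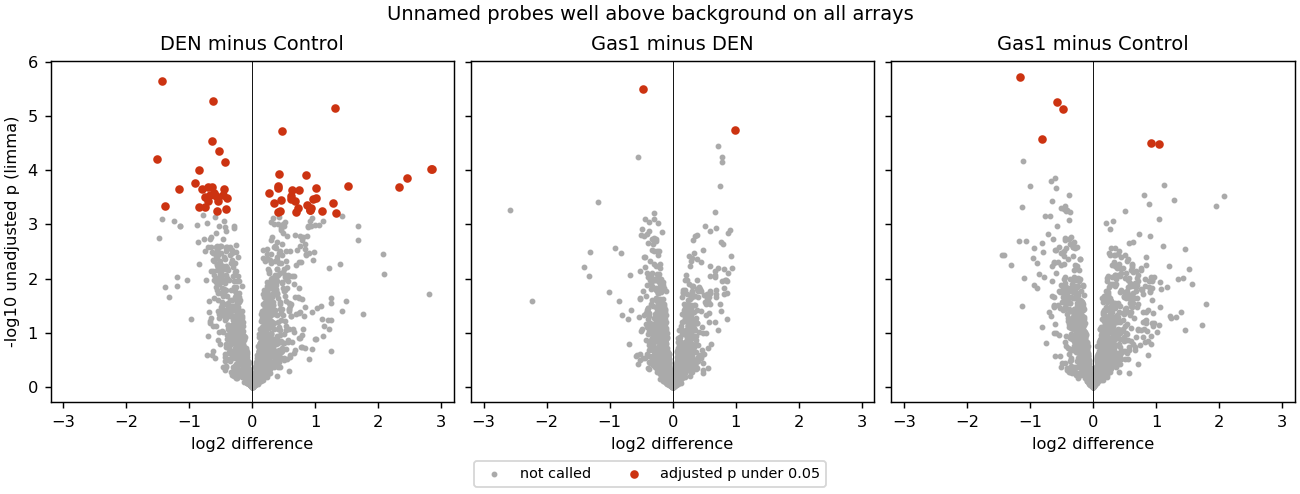
Each point is an unnamed probe well above background on all arrays, with the log2 difference between group means on the horizontal axis and -log10 of the unadjusted limma p on the vertical axis, for each of the 3 comparisons. Red points have an adjusted p under 0.05: 59 in DEN minus Control, 2 in Gas1 minus DEN and 6 in Gas1 minus Control.

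Groups of probes alike in sequence were described next. They were picked after their values had been seen, and within a group the probes may bind the same RNA, so a group is not a set of independent measurements. The Hmgb1-like group held 10 probes on 8 chromosomes, and their partners with a symbol were an Hmgb1 probe and Gm2710. All 10 differences between DEN and Control were above 0, with a median of 0.92 and a range of 0.28 to 1.02, and 4 passed the test. Gas1 minus DEN had a median of -0.35 and Gas1 minus Control one of 0.55, with 0 calls each (unadjusted p under 0.05 for 3 and 9). Medians per mouse, here and below, are taken over the probes of a group with a value in every mouse. In each mouse the median of the group over the Control mean was -0.21, 0.01 and 0.18 in Control, 0.60, 0.72, 1.02 and 1.36 in DEN, and from 0.10 to 0.91 in Gas1. Every DEN mouse thus stood above every Control mouse, and the Gas1 mice overlapped with both groups.

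For A_55_P2069787 the log2 levels were 7.97, 8.11 and 8.47 in Control, 9.03, 8.92, 9.27 and 9.57 in DEN, and 8.40 (lowest), 8.70 (median) and 9.18 (highest) in Gas1. DEN exceeded Control by 1.02 ± 0.20 (SE, adjusted p = 0.0354, limma, n = 4 and 3). The Hmgb1 partner A_55_P2025153 rose by 1.08 (adjusted p = 0.0369) and Gm2710 by 1.02 (adjusted p = 0.0359). The other probes of Hmgb1 did not all follow: of its 7 probes, 2 passed the test and the differences ran from -0.04 to 1.08. A_55_P2032708, an Hmgb1 probe aligned with other unnamed probes, differed by -0.04 (adjusted p = 0.905).

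The Hmg1l1-like group, related to another high-mobility group copy, had 5 probes on 5 chromosomes. Its DEN minus Control differences were 0.58 to 0.72 with a median of 0.62, and 3 passed the test. Its partner, the Hmg1l1 probe A_55_P2131483, differed by 0.59 (adjusted p = 0.0701). Of these 2 groups together, 7 of 15 probes were called. That number was 0 without Control mouse 1 or 2 or DEN mouse 2, 3 or 4, 2 without Gas1 mouse 1 or 5 and 4 without Gas1 mouse 2.

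The envelope-like group had 4 probes on chromosomes 7, 8, 13 and X, aligned with LOC100503637. Differences between DEN and Control were 1.21 to 2.45, and 2 of 4 passed. The median over the Control mean was 0.89 in DEN mouse 1 and between 2.12 and 3.36 in the other DEN mice, and 1.25 to 2.34 in Gas1 mice, while Control mice lay between -0.11 and 0.20. No DEN or Gas1 mouse overlapped with Control. A_55_P2114318 was at 8.28, 8.53 and 8.21 in Control, 9.32, 11.46, 10.63 and 11.76 in DEN, and 9.79, 10.53 and 10.97 (lowest, median, highest) in Gas1. It rose by 2.45 ± 0.46 (adjusted p = 0.0304), and Gas1 minus Control was 2.09 (adjusted p = 0.0841). A_55_P2007495 was at 7.96, 8.24 and 7.92 in Control, 8.93, 10.99, 10.16 and 11.39 in DEN, and 9.29, 10.16 and 10.38 in Gas1, and rose by 2.33 ± 0.45 (adjusted p = 0.0350). The partner probe of LOC100503637 differed by 0.41 (adjusted p = 0.353). The calls of this group numbered 0 without Control mouse 1 or 2 or DEN mouse 2, 3 or 4, 1 without Control mouse 3 and 4 without DEN mouse 1.

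The largest group, 40 probes on 17 chromosomes, was made of purine repeats, and 28 of them were at least 90% one-sided. Its log2 levels ran from 6.996 to 14.76, and 0 were called in any comparison by limma. The unadjusted p was under 0.05 for 9 in DEN minus Control (median difference 0.10), 22 in Gas1 minus DEN (0.57) and 29 in Gas1 minus Control (0.63). Medians over the Control mean were -0.34 to 0.29 in Control, -0.45 to 0.82 in DEN and 0.33 to 1.05 in Gas1 mice. The Gas1 mice were thus all above the Control mice, narrowly at 0.33 against 0.29, but overlapped with DEN. The 2 arrays averaged into Control mouse 3, the highest Control mouse, differed by a median of -0.14. The single probes differed by -1.38 to 0.96 in DEN minus Control. Partners with a symbol differed as well: the Vash1 probe A_55_P2131520 rose by 0.88 in DEN (adjusted p = 0.0415) with -0.37 in Gas1 minus DEN (adjusted p = 0.520), while the Gcm1 probe A_55_P2114697 had -0.06 (adjusted p = 0.951) and 0.78 (adjusted p = 0.503).

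The Rps2-like group went the other way. Its 4 probes differed by -0.85 to -0.43 between DEN and Control (median -0.65), 3 passed the test, and the Gas1 values were like those of DEN (Gas1 minus DEN median 0.02, Gas1 minus Control -0.64). A_55_P2030859, described as a predicted gene, was at 14.08, 14.19 and 13.44 in Control, 13.16, 13.39, 12.96 and 12.73 in DEN, and 13.03, 13.10 and 13.29 in the 5 Gas1 mice with a value. It fell by 0.85 ± 0.18 on the log2 scale (adjusted p = 0.0450). A_55_P2184478 fell by 0.61 (adjusted p = 0.0379). Of the partners, LOC639606, a 40S ribosomal protein S2-like gene, fell by 0.55 (adjusted p = 0.0400), and Gm5921 differed by -0.31 (adjusted p = 0.132). The calls were 0 without Control mouse 1 or 2 or DEN mouse 3 or 4, and 1 without DEN mouse 2 or Gas1 mouse 1 or 5.

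The 16 Gapdh-like probes, on 11 chromosomes, of which 10 aligned with a probe of the pseudogenes Gm6981 or Gm5069, all had values below 0 in DEN minus Control, between -0.57 and -0.15 with a median of -0.50. Of them 15 had an unadjusted p under 0.05, and 2 passed the test: A_55_P1993629 on chromosome 8 fell by 0.57 (adjusted p = 0.0485) and A_55_P2093649 on chromosome 10 fell by 0.54 (adjusted p = 0.0406). The medians of the group were 0.17, -0.12 and -0.05 in Control, -0.67, -0.32, -0.52 and -0.46 in DEN and -0.56 to 0.16 in Gas1 mice. Of 8 probes of Gapdh itself, 0 passed, with values from -0.68 to 0.19. After median scaling the medians turned to 0.49 for the Gapdh-like and 0.43 for the Rps2-like group, below the shift of 0.72 in the detected probes. Called probes of the Hmgb1-like and Hmg1l1-like, the Rps2-like, the envelope-like and the Gapdh-like groups numbered 13, 0, 4 and 0 after median scaling, 0, 1, 0 and 0 after cyclic loess, and 0 in each with processed signals at the 75th percentile. The 2 Gapdh-like calls became 4 without Gas1 mouse 3 or 6, 1 without Gas1 mouse 2 and 0 without each of the other 10 mice.

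The 15 Rpl7a-like probes were nearly level, with a median of -0.06 in DEN minus Control (0.08 after scaling to the 75th percentile, and 0.94 after median scaling) and 0 calls (unadjusted p under 0.05 for 0). Of 30 probes described as ribosomal, 0 were called in DEN minus Control and the median was 0.11. A group of 3 major urinary protein probes on chromosome 4, for pheromone carriers made in the male liver, had a median of 0.79 and 0 calls. Mice of a group spread widely there, from -1.30 to 2.14 over the Control mean in Gas1, and 2 arrays of a mouse differed by -1.09 (Control) and -1.25 (DEN). A group of 3 probes described as predicted genes, on chromosomes 9 and 2, had differences of 1.21 to 1.25 with 0 calls. DEN mouse 2 was at -0.38 and the other DEN mice at 1.47 to 2.12.

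**Figure D2:**
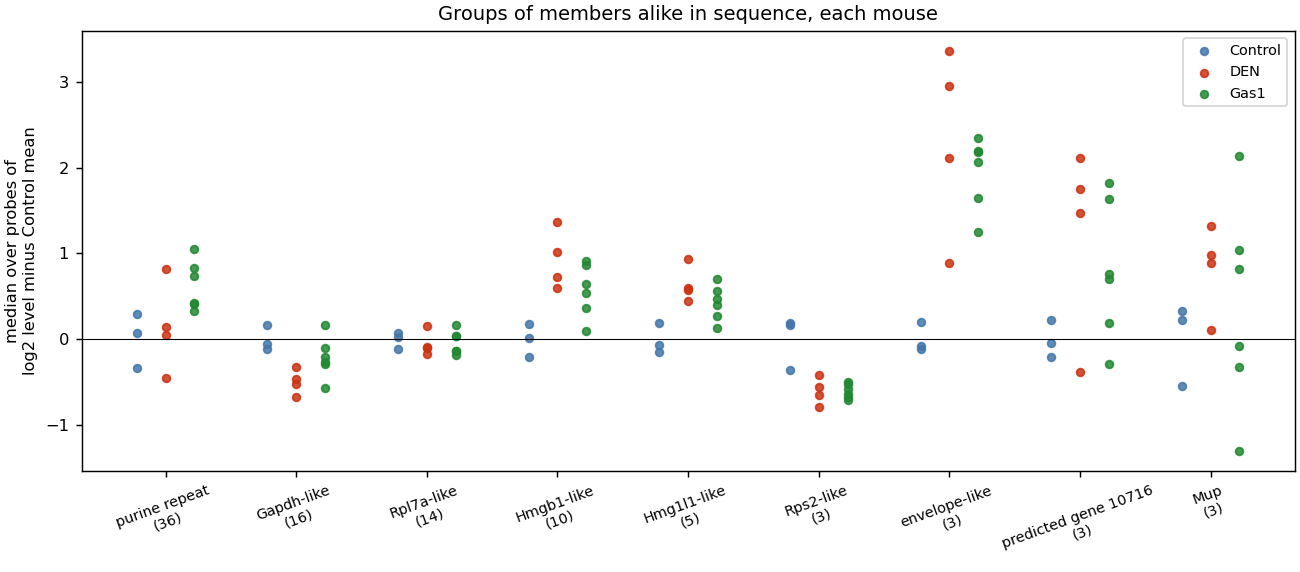
Each point is a mouse, and its height is the median, over the probes of a group with values in every mouse (number in parentheses), of the log2 level minus the Control mean. Envelope-like points of DEN lie at 0.89 to 3.36 and those of the Rps2-like group at -0.79 to -0.42. After median scaling the Rps2-like and Gapdh-like medians of DEN minus Control turn to 0.43 and 0.49.

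The values could be set beside a partner of each probe, by sequence or by position. Of the probes with an aligned partner that has a symbol and was itself well above background on all arrays, 411 in number, 82.2% had the same sign as the partner in DEN minus Control, and the correlation across these pairs was 0.77. All 19 called probes among them shared the sign, and 11 of the partners were called too. By position, 538 of the 1699 probes (31.7%) had a probe with a symbol within 10 kb. For 255 such pairs without sequence likeness and with the neighbour detected on all arrays, 58% shared the sign and the correlation was 0.11. Of 7 called probes among them, 2 had the sign of the neighbour and 0 of the neighbours were called. The correlations are across probes of the same 13 mice, many probes share a partner, and they carry no test.

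**Figure D3:**
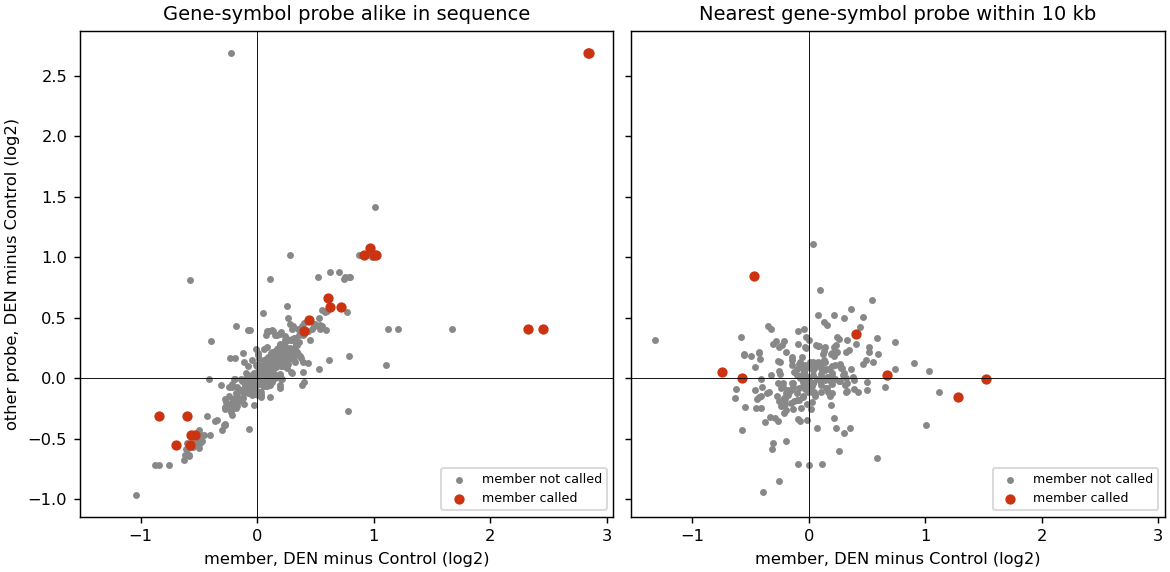
Each point is an unnamed probe, with its DEN minus Control log2 difference on the horizontal axis and that of another probe on the vertical axis: left, the gene-symbol probe alike in sequence (411 pairs), right, the nearest gene-symbol probe within 10 kb without likeness (255 pairs). Points follow the diagonal on the left (correlation 0.77) and scatter around 0 on the right (0.11).

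Further probes with the largest changes between DEN and Control had no like probe or a single one. A_55_P2042184 (chr16:31090001-31090060, plus strand), aligned over 59 bases with Gm4354, was at 7.37, 6.80 and 8.22 in Control, 9.23, 8.33, 8.94 and 9.43 in DEN, and 7.53, 7.84 and 8.07 (lowest, median, highest) in Gas1. It rose by 1.52 ± 0.30 (adjusted p = 0.0349), and the Gm4354 probe rose by 1.26 (adjusted p = 0.0379). All Gas1 mice lay below all DEN mice, with a difference of -1.19 (adjusted p = 0.138). A_55_P2009217 (chr11:87256894-87256953) was at 9.48, 9.56 and 10.04 in Control, 10.56, 10.94, 11.49 and 11.08 in DEN, and 9.37, 10.36 and 10.53 in Gas1, a rise of 1.32 ± 0.29 (adjusted p = 0.0496). A_55_P2141479 (chr11:101507095-101507154) was at 8.24, 8.14 and 8.37 in Control, 8.90, 9.18, 9.90 and 10.14 in DEN, and 8.45, 8.61 and 9.36 in Gas1, a rise of 1.28 ± 0.27 (adjusted p = 0.0421). The Gas1 mice overlapped with Control in A_55_P2009217 and with DEN in A_55_P2141479. The nearest probe with a symbol, Rdm1 for A_55_P2141479, differed by -0.16 (adjusted p = 0.721).

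A_55_P1996952 kept its call without any of the mice. Its sequence is printed because it was called in 2 comparisons and had no like probe.
A_55_P1996952: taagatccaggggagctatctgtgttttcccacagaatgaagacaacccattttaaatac
It lies at chr5:11478243-11478302 (plus strand), with no probe of a symbol within 10 kb. Its levels were 7.97, 7.65 and 8.38 in Control, 9.55, 8.96, 9.26 and 9.48 in DEN, and 8.82, 9.05 and 9.29 in Gas1. It rose in DEN by 1.31 ± 0.18 (adjusted p = 0.0120) and was higher in Gas1 than in Control by 1.05 ± 0.17 (adjusted p = 0.0403). After median scaling the latter difference was 1.64 (adjusted p = 0.109). Every mouse given the carcinogen was above every Control mouse. The call between Gas1 and Control was kept in 4 of 13 fits that left out a mouse, and was lost without Control mouse 1 or 2, DEN mouse 3 or 4 or Gas1 mouse 1, 2, 3, 4 or 5.

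Among the probes that fell, A_55_P2340448 (chr10:106370604-106370663, minus strand) had the lowest adjusted p, and it was the only one of the 1699 called higher in Gas1 than in DEN. It was at 8.49, 8.16 and 8.21 in Control, 7.09, 6.61, 6.64 and 7.05 in DEN, and 7.45, 7.82 and 8.27 (lowest, median, highest) in Gas1. It fell in DEN by 1.44 ± 0.18 on the log2 scale (adjusted p = 0.00829) and kept this call without any of the mice, with values between -1.52 and -1.34. The level in Gas1 was 0.99 ± 0.15 above DEN (adjusted p = 0.0478), a call kept in 3 of 13 such fits, and Gas1 minus Control was -0.44 (adjusted p = 0.322). No Gas1 mouse overlapped with a DEN mouse. With the scanner's processed signals at the 75th percentile the fall was -2.26 and the Gas1 minus DEN difference 1.68 (adjusted p = 0.193).

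A_66_P124420 (chr13:62915207-62915266, plus strand) was at 9.08, 8.92 and 8.58 in Control, 7.71, 6.93, 7.15 and 7.61 in DEN, and 7.42, 8.39 and 8.57 in Gas1. It fell by 1.51 ± 0.26 (adjusted p = 0.0226), the largest fall among the called probes. A_55_P2139587 (chr13:22375584-22375643, plus strand) was at 9.05, 8.80 and 8.74 in Control, 7.54, 7.30, 6.99 and 8.09 in DEN, and 7.20, 7.92 and 8.34 in Gas1, and fell by 1.38 ± 0.30 (adjusted p = 0.0446). In both, Gas1 overlapped with DEN and not with Control. The AGCAGT repeat A_55_P1980214 was at 8.83, 9.07 and 8.11 in Control, 7.72, 7.95, 7.22 and 7.15 in DEN, and 7.56, 7.85 and 8.12 in Gas1, and fell by 1.16 ± 0.23 (adjusted p = 0.0354). A_55_P2096134 (chr9:117731310-117731369, plus strand) was at 7.76, 7.41 and 7.16 in Control, 6.39, 6.71, 6.51 and 6.49 in DEN, and 6.31, 6.83 and 7.16 in Gas1, and fell by 0.92 ± 0.18 (adjusted p = 0.0331). Control and DEN did not overlap in these, as the choice of named probes required, but highest Gas1 and lowest Control values met. A_66_P125828 (chr19:20660643-20660702, minus strand), an Ensembl transcript, was at 12.08, 11.60 and 11.29 in Control, 10.97, 10.84, 10.95 and 10.69 in DEN, and 11.45, 11.65 and 11.82 in Gas1. It fell in DEN by 0.79 ± 0.16 (adjusted p = 0.0357), a direction that turned to 0.19 after median scaling. Gas1 minus Control was -0.02 and Gas1 minus DEN 0.78 (adjusted p = 0.0675), with all Gas1 mice above all DEN mice. After median scaling no named fall passed the test. The values were then -0.72 for A_66_P124420, -0.79 for A_55_P2340448, -0.60 for A_55_P2139587, -0.39 for A_55_P1980214, -0.46 for A_55_P2096134 and -0.04 for A_55_P2046408, and that of A_55_P2030859 turned to 0.21. With processed signals at the 75th percentile A_55_P2096134 was at -2.001 (adjusted p = 0.0634).

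**Figure D4:**
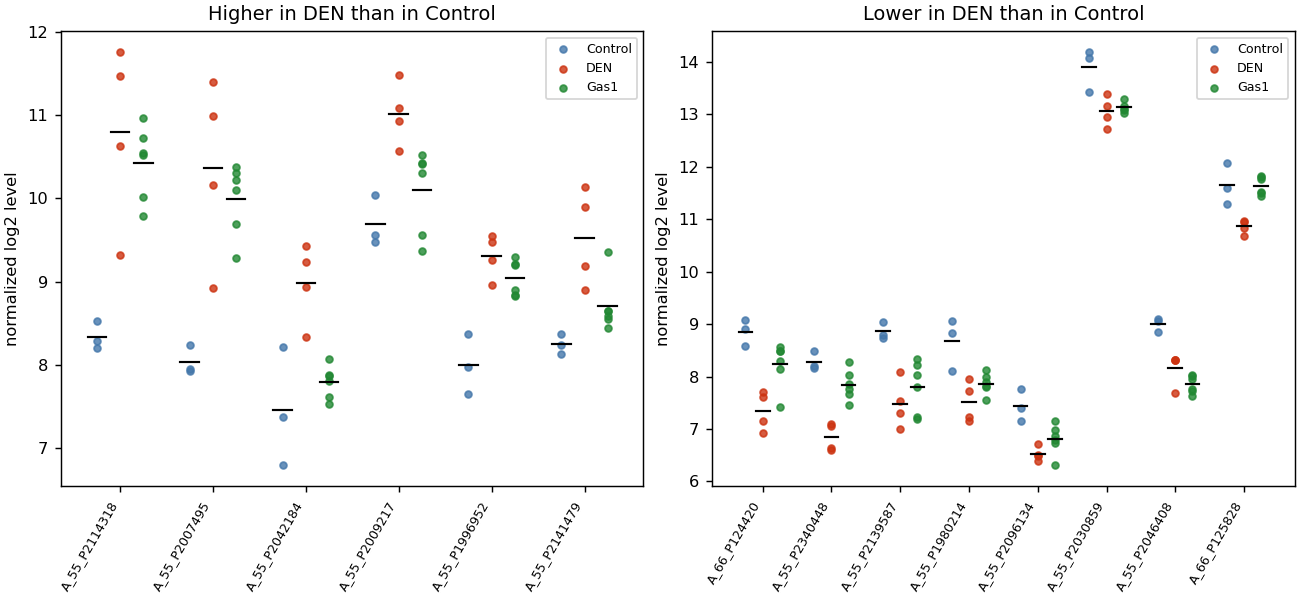
Normalized log2 levels of 6 of the 8 probes with the largest rise (left) and the 8 with the largest fall (right) between Control and DEN among the called probes. Each point is a mouse and each black bar a group mean. Control and DEN points do not overlap for any of the 14 shown, since the probes were chosen for that. A_55_P2114318 spans 8.21 to 11.76.

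Calls of Gas1 against Control included A_55_P2046408, printed because it was the lowest in Gas1 relative to Control among the called probes, at chr13:68995988-68996047 (plus strand).
A_55_P2046408: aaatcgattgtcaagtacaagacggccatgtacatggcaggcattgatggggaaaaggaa
It was at 9.10, 8.84 and 9.07 in Control, 8.32, 8.31, 7.69 and 8.31 in DEN, and 7.62, 7.86 and 8.04 in Gas1. It was lower in Gas1 than in Control, with a log2 difference of -1.15 ± 0.14 (adjusted p = 0.0209), lost only without Control mouse 1 among the fits that left out a mouse. Between DEN and Control it fell by 0.84 ± 0.15 (adjusted p = 0.0267). A_66_P107745 (chr17:85356561-85356620, minus strand) was at 7.66, 7.76 and 7.65 in Control, 7.31, 6.96, 6.99 and 7.01 in DEN, and 7.04, 7.07 and 7.25 in Gas1. It was lower by 0.57 in Gas1 (log2 difference -0.57, adjusted p = 0.0231) and by 0.62 in DEN (-0.62, adjusted p = 0.0120). For these probes the DEN and Gas1 mice together lay below all Control mice. After median scaling the Gas1 minus Control differences were -0.42 for A_55_P2046408 (adjusted p = 0.397) and -0.03 for A_66_P107745 (adjusted p = 0.932).

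A_55_P2387665 (chr8:5083366-5083425, minus strand), 2779 bp from the probe of the bile acid transporter Slc10a2, was at 8.31, 8.46 and 7.998 in Control, 7.84, 8.32, 7.73 and 7.81 in DEN, and 7.31, 7.42 and 7.63 in Gas1 (Gas1 minus Control -0.81, adjusted p = 0.0403). A_55_P1972054 (chr1:94837490-94837549, plus strand), 6740 bp from the probe of the protease gene Capn10, was at 7.004, 7.06 and 7.08 in Control, 6.77, 6.86, 6.84 and 6.70 in DEN, and 6.48, 6.54 and 6.73 in Gas1 (Gas1 minus Control -0.47, adjusted p = 0.0257). In the first, all Gas1 mice were below all others, and in the second the ranges of Gas1 and DEN met. The Slc10a2 probe differed by -0.83 between Gas1 and Control (adjusted p = 0.0937) and that of Capn10 by -0.66 (adjusted p = 0.121). A_55_P1995774 (chr2:177504998-177505057, plus strand), described as a protein with a KRAB box and zinc fingers, the domains of a large family of transcriptional repressors, was at 6.94, 7.17 and 6.99 in Control, 7.25, 7.37, 7.70 and 7.68 in DEN, and 7.78, 7.81 and 8.44 in Gas1. Gas1 exceeded Control by 0.92 ± 0.15 (adjusted p = 0.0403), and DEN minus Control was 0.46 (adjusted p = 0.149). Groups did not overlap and stood in the order Control, DEN, Gas1, but Gas1 minus DEN did not pass the test (0.45, adjusted p = 0.322). After median scaling Gas1 minus Control was -0.14 for A_55_P2387665 (adjusted p = 0.636), -0.11 for A_55_P1972054 (adjusted p = 0.670) and 1.34 for A_55_P1995774 (adjusted p = 0.108). With processed signals at the 75th percentile it was -0.95 for A_55_P1972054, 1.41 for A_55_P1995774 and -0.89 for A_66_P107745, each with an adjusted p of 0.112.

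The single probe lower in Gas1 than in DEN was A_55_P2049071 (chr11:76920860-76920919, minus strand), printed for that.
A_55_P2049071: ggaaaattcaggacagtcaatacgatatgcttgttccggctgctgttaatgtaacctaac
It was at 10.63, 10.36 and 10.51 in Control, 10.86, 10.95, 10.77 and 10.79 in DEN, and 10.24, 10.40 and 10.42 in Gas1. Gas1 minus DEN was -0.48 ± 0.06 (adjusted p = 0.0346), lost without DEN mouse 2, 3 or 4 or Gas1 mouse 2, 3, 5 or 6, and DEN minus Control was 0.34 (adjusted p = 0.0419). After median scaling Gas1 minus DEN was -0.61 (adjusted p = 0.641). The Gas1 minus Control calls of the other probes were lost without these mice: for A_55_P1972054 Control mouse 1 or 2, for A_66_P107745 Control mouse 1 or 2 or Gas1 mouse 2 or 3, for A_55_P2387665 Control mouse 1 or 2, DEN mouse 3 or 4 or Gas1 mouse 1, 2, 3 or 4, and for A_55_P1995774 the same or DEN mouse 2. Of the 16 named DEN minus Control calls, those of A_55_P1996952 and A_55_P2340448 held without any mouse, and the other 14 were lost without Control mouse 1 and without Control mouse 2. Within each of the 2 slides, which held arrays of all 3 groups, all 24 named differences had the same sign as over both. They were chosen because the groups did not overlap on these same arrays, so equal signs were nearly fixed in advance. The averaged pairs also had an array on each slide, so the slides are no replication of each other.

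**Figure D5:**
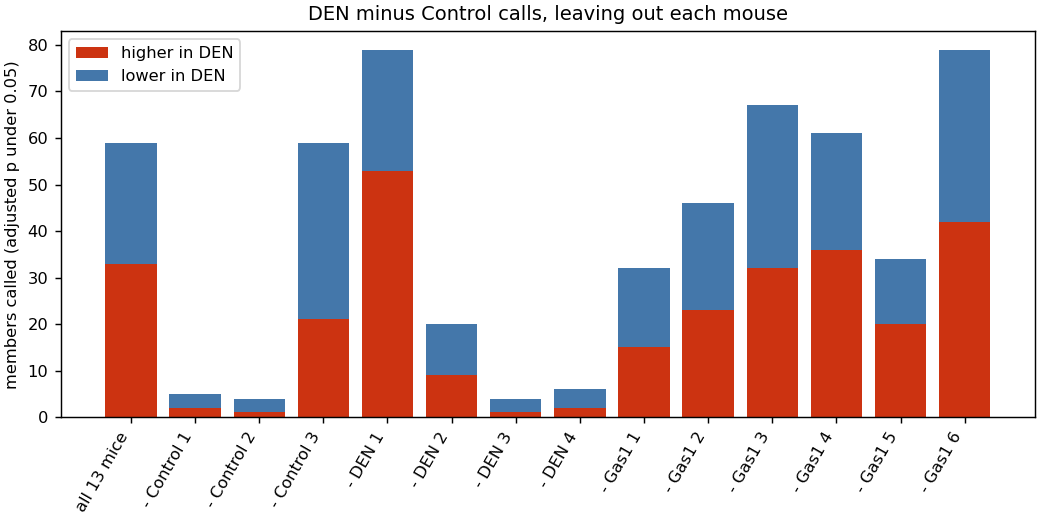
Number of unnamed probes called between DEN and Control (adjusted p under 0.05) with all 13 mice and without each mouse in turn, split into higher (red) and lower (blue) in DEN. The count is 59 with all mice and between 4 and 79 without a mouse.

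By position, the calls of DEN minus Control were spread over the genome. Chromosome 16 had 5 higher and 2 lower of 61 probes, beside 13 and 8 of all 447 detected probes there. Chromosome 11 had 3 and 3 of 116, beside 12 and 24 of 1098, and chromosome X 3 and 0 of 88, beside 5 and 3 of 395. On chromosomes 13 and 17 the called probes were all lower, 4 of 78 and 4 of 83, beside 4 higher and 10 lower of 505 detected probes and 10 and 6 of 684. No chromosome from 1 to 19 had a median beyond -0.05 to 0.11. Probes that started within 10 kb of each other formed 110 loci of 2 or more, and 7 loci held 3 or more. In 1 of these 7 a probe was called: next to A_55_P2030859, the probe A_55_P1968943 (chr17:26680645-26680695) differed by 0.06 and A_55_P1975087 (chr17:26679992-26680051) of the same predicted gene by -0.01. Probes of a locus thus did not move together there. The single probe of the mitochondrial chromosome, A_55_P2061645, lay 150 bp from the ND5 probe and differed by -0.33 (adjusted p = 0.592).

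The brightest probes did not pass the test in any comparison. Quantile normalization gives the top ranks of every array the same values, so probes at the very top had little room to differ. A_55_P2100241 (chr17:39985058-39985117, plus strand) had a log2 mean of 18.29, with values missing in 4 mice after outlier flags, and differed by -0.05 between DEN and Control (adjusted p = 0.882). Its letters are printed as those of the brightest member. They resemble the known sequence near the 3′ end of 18S ribosomal RNA, but were not aligned to it here.
A_55_P2100241: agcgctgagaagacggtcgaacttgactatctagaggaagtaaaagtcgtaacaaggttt
A_55_P2046709 (18.09) had 98.3% identity over 60 bases to the probe of Serpina1c, a protease inhibitor secreted by hepatocytes. A_55_P1964682 (16.69, no position), A_55_P2035029 (16.50), A_55_P1985519 (15.96) and A_55_P2048650 (15.89) followed. No spot of the 1699 was saturated. At the other end, A_55_P2040476 (6.49), A_55_P2097434 (6.50) and A_52_P337232 (6.50) were the dimmest inside the rule, while A_55_P1953984 (7.99), A_55_P2072041 (7.70) and A_55_P2465382 (7.64) missed it on a single array.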

How the data were processed

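Intensities of 15 single-colour Agilent arrays were used. The authors deposited the scanner output per array, extracted with Feature Extraction 10.7.3.1: mean signal intensity, local background intensity and flags for each of 62976 spots. They also deposited a table of log2 values after normexp and quantile normalization, used as an alternative (median absolute difference for the members 0.0052). The normexp offset is not given in the sources used here, and 50 was taken. Signal and background were corrected with normexp on all spots, 3671 control spots were left out, outlier-flagged spots were set to missing, quantile normalization was applied and spots of a probe were averaged. A level is that log2 intensity, and levels of different probes are not on a common scale.

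Arrays of the same RNA code were averaged to 13 mice. Over the members the SD of the log2 difference within such a pair was 0.285 (Control) and 0.297 (DEN). Its ratio to the smallest SD of any other pair in the group was 0.759 and 1.09. Over all detected probes the ratios were 0.576 and 0.789. The DEN pair was thus the closest of its group over the detected probes, but not over the members. Taking 15 separate arrays was an alternative. The study's qRT-PCR legend counts 4 control, 4 DEN and 6 Gas1 animals. Whether the Control pair was 1 mouse is therefore not certain. The sources used here do not tie each array to a mouse, and p-values measure the spread between these samples.

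limma 3.58.1 in R 4.3.3 (1 mean per group, eBayes without trend, Benjamini-Hochberg over 55681 probes, threshold 0.05) was used. The fit was tested on simulated data with known differences and independent noise for each probe and mouse. That setting lacks array-wide shifts, so it checks the code and not the calls above. Values given with ± are limma estimates and standard errors. Probe sequences and mm9 positions are those of the files, and sequences were compared with blastn 2.17.0; tables and figures used Python 3.11.15, numpy 2.4.6, pandas 2.3.3 and matplotlib 3.10.9. Positions come without a genome, so exons were not assigned. The number of arrays limits the precision. Of the 1699 members 172 lacked a value in some mouse. Named members were, per comparison, the 8 largest rises and falls among called probes whose groups did not overlap, the 6 brightest, called loci of 3 or more, the mitochondrial probe and the 3 probes on either side of the detection limit. A pair of called probes, the largest rises in DEN against Control, and their sequence group are not reported here. Members and lists were chosen with earlier results of these data known, and sequence groups after their values were seen. Alternatives were other scalings, background corrections, filters, slide, moderation, tests and leaving out each mouse.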

Additional observations from a re-analysis of the deposited data

Results flagged for a closer look

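In 4 of 64 groups of named probes a mouse stood apart from the others of its group by Dixon's ratio, which chance alone gives in about 1 in 20 groups. A_55_P2141479 was at 9.36 in Gas1 mouse 6, with the other Gas1 mice at 8.45 to 8.64 (ratio 0.786). A_66_P124420 was at 7.42 in Gas1 mouse 4, with the others at 8.14 to 8.57 (0.631). A_55_P2046408 was at 7.69 in DEN mouse 3, with the other DEN mice at 8.31 to 8.32 (0.992). A_66_P107745 was at 7.31 in DEN mouse 1, with the others at 6.96 to 7.01 (0.844).

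Unnamed probes outside the 1699 were in part above background in DEN or Gas1 livers and not in Control livers. Of the 8209 unnamed probes outside the members, 5 were well above background on all DEN and no Control arrays, and 3 on all Gas1 and no Control arrays. The reverse, all Control and no DEN arrays, held for 6. The shares over all probes of the array were not counted. Among the first 5, A_55_P2186929 (chr2:21990925-21990984) had a log2 mean of 6.003 in Control and 7.14 in DEN. These probes were picked by that contrast, so it carries no test.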

How the results depend on the processing

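Counts of called unnamed probes are given as DEN against Control, Gas1 against DEN and Gas1 against Control, in that order, with 59, 2 and 6 as reported. They were 370, 0 and 0 after median scaling, 12, 2 and 0 after cyclic loess, 4, 0 and 0 with processed signals at the 75th percentile, and 12, 0 and 1 with processed signals and quantiles. A normexp offset of 16 gave 63, 1 and 8. Fitting only the detected probes gave 98, 6 and 19, taking 15 arrays as separate mice 233, 8 and 22, and a slide term with the mouse as a random block 148, 7 and 18. Within slide 1 the counts were 3, 0 and 0 and within slide 2 they were 18, 0 and 2. A trend in eBayes gave 36, 0 and 7, and trend with a robust prior 52, 4 and 8. A two-tailed t-test gave 0, 0 and 0 after Benjamini-Hochberg adjustment, with equal variances and in Welch's form. At an unadjusted p under 0.05 it gave 361, 185 and 265 with equal variances and 300, 167 and 229 in Welch's form. For its arrays the study names the multtest package, which was not run here. Leaving out each mouse gave 4 to 79, 0 to 4 and 0 to 30. The replicate block, with mouse number as a term, gave 31, 0 and 3. The numbers do not pair the mice: same-numbered mice correlated between -0.37 and 0.44 over the members. Kept outliers, only the 2 groups compared and the authors' values left the 3 counts within 1.5 times. Shares over all or over the detected probes were not counted under the alternatives. Their counts therefore do not set the members beside the background.

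Of 744 values of 24 named differences under alternatives, 420 kept direction and call, 322 kept direction only, and 2 reversed, both after median scaling: A_55_P2030859 (0.21) and A_66_P125828 (0.19). Chaining loci within 50 kb gave 22 loci of 3 or more, and the likeness rule at 50 aligned bases, chosen after seeing the data, gave 449 probes. The causes were not tested. With 4 Control arrays, taken as 3 mice, the number of arrays limits what could be called.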
